A study of Mus musculus with 14 samples.

Results

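Fresh parotid gland (PG) and submandibular gland (SMG) tissue of the mouse were compared across all genes in 4 of the 14 RNA-seq libraries of the series, 2 libraries per gland, which were chosen by their labels. Both glands came from untreated wild-type C57BL/6 mice, which the study describes as female and 6 to 8 weeks old. The headings of the tissue count columns carry the label 6w. The study grew organoids, 3-dimensional epithelial cultures, from the major salivary glands. In its mouse RNA-seq results it set SMG tissue beside SMG organoids, and it compared PG and SLG tissue with organoids in stained sections. Sublingual gland (SLG) tissue (2 libraries), and PG and SMG organoids kept in a differentiation accelerating medium (DAM, 4 libraries), are used below only beside the PG and SMG tissue. The labels call the source of every library epithelial cells, but a library of tissue is dissected gland, and it held RNA of muscle, vessels, fat and immune cells as well. The series describes the libraries of a group as biological replicates. Since no source used here says if a library holds 1 mouse or several, a p-value measures only how far these samples spread.

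Salivary glands make saliva in acini, whose secretory cells are serous (watery, rich in enzymes) or mucous (rich in mucins), and modify it in ducts that take back sodium and add potassium, bicarbonate and further proteins. In the mouse the PG is a serous gland, while the SMG holds seromucous acini and granular convoluted tubules, a duct segment that stores kallikreins and growth factors and is larger in males. Most of the protein of saliva comes from a small set of secreted families, many of them encoded in clusters of neighbouring gene copies.

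The sequences just before the starts of the genes that carried most of the difference are shown first, because so few genes held most of the RNA. They are the 120 bases before the start that the RefSeq promoter table gives (GRCm38.p6), on the gene's strand. For Smr3a this start lies 10970 bases inside the whole annotated gene, for the Dcpp1 and Dcpp3 genes shown further on 207 and 39 bases inside, and for the others at the gene's first base. Capitals mark TATAA, the core of the TATA box, which places the polymerase at many highly expressed genes.
Bpifa2 (chr2:154008156-154008275, plus strand): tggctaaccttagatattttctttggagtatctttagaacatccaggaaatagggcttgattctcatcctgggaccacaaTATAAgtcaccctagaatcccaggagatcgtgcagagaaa
Smr3a (chr5:88002405-88002524, plus strand): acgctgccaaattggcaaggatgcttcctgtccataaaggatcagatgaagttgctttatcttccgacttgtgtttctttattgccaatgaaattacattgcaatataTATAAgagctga
Chia1 (chr3:106113262-106113381, plus strand): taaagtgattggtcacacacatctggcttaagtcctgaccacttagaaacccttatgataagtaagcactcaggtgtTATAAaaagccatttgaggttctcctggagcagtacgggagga
Mucl2 (chr15:103899313-103899432, minus strand): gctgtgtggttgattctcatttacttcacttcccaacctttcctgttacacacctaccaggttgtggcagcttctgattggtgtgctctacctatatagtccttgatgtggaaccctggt
Prol1 (chr5:88317192-88317311, plus strand): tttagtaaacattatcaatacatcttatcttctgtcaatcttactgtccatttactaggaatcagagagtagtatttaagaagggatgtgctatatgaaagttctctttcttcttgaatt
Scgb2b26 (chr7:33944986-33945105, minus strand): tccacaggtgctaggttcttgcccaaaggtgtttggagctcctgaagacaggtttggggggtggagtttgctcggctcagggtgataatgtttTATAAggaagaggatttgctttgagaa

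Bpifa2, Smr3a and Chia1 are PG genes here, and Mucl2, Prol1 and Scgb2b26 are SMG genes. TATAA lay in 3 of the 3 PG sequences and in Scgb2b26. Its first base was 40 (Bpifa2), 12 (Smr3a), 43 (Chia1) and 27 (Scgb2b26) bases before the start given. These exact letters were not in the windows of Mucl2 and Prol1. Mucl2 holds tatatag, and variants of the motif were not searched, so absence of TATAA does not show that a TATA box is lacking. In the last 50 bases before a start, on the gene's strand, TATAA was found in 5.21% of 1017 RefSeq promoters of genes higher in PG and in 4.80% of 1041 promoters of genes lower in PG. It was found in 2.68% of the 14990 promoters of all genes tested and in 4.93% of 32851 promoters in the table. Over the 250 bases before the start and on either strand, these shares were 14.3%, 17.0%, 13.2% and 22.8%. CATATG, an E-box of the form bound by the acinar factor Bhlha15, lay in 2.07% of the promoters of genes higher and 2.02% of those of genes lower in PG, against 1.73% of those of all genes tested. TGTTTAC, a core of forkhead factor motifs, lay in 3.44%, 2.88% and 2.33% of the same 3 sets of promoters. A match is a description of letters and not of binding.

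A few secreted products filled both kinds of library, as the plot of library shares shows. The top 10 genes by count made up 74.5% and 74.7% of PG libraries and 78.7% and 80.2% of SMG libraries, against 49.6% and 47.0% in SLG. Library totals were 71367044 and 68876821 counts in PG and 63525160 and 57397998 in SMG. Levels are given as CPM, a gene's counts relative to a library size that was rescaled by the trimmed mean of M-values (TMM), a method that assumes that most genes do not differ. The TMM factors were 0.850 and 0.836 in PG and 0.800 and 0.756 in SMG. For the dominant genes the plain share of a library's counts is given. Replicates of a gland were close, with a chi-square per degree of freedom over genes of 12.1 in PG and 11.2 in SMG, against 259.5 in SLG.

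**Figure D1:**
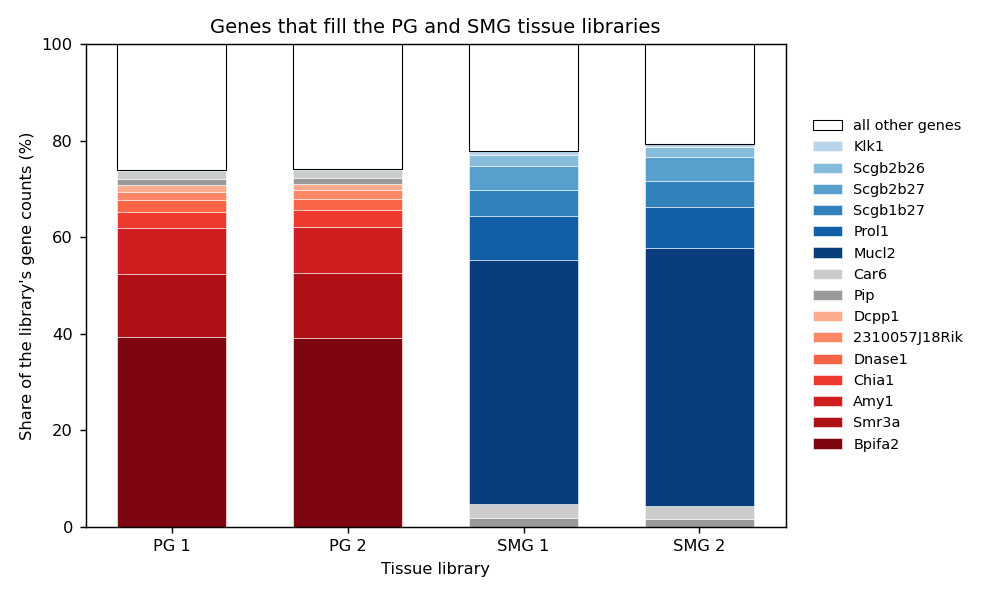
Share of the gene counts of each PG and SMG tissue library (percent, stacked bars) taken by the 8 genes with the most counts in either gland. Bpifa2, Smr3a and Amy1 filled most of the PG bars and Mucl2, Prol1 and the secretoglobins most of the SMG bars, with replicates nearly alike.

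Some facts about single libraries touch what follows. Of 12 PG products looked at, chosen after their values were seen, SLG replicate 1 held each at 3.7% to 6.28% of its PG mean (Smr3a 5.68%, Amy1 5.63%, Dnase1 5.46%). SLG replicate 2 held 9 of them at 0.0913% or less, and Bpifa2 at 1.15%, Ggh at 0.897% and 2310057J18Rik at 0.371%. Because the 6 tissue libraries share an estimate of the spread, this gap widened the standard errors of PG products, and results that rest on it are given also from a fit of the 4 PG and SMG libraries alone. Smr3a, for example, had an adjusted p of 0.0857 in the 6 libraries and of 6.4e-13 without SLG replicate 1. PG replicate 2 held skeletal muscle RNA, with a summed level of 556 CPM over 16 muscle genes against 2.64 in PG replicate 1 and 3.33 and 3.09 in SMG. In bulk tissue, fewer cells of a type and less RNA per cell cannot be told apart.

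Of 45777 genes, 16653 had a count above 0 in all 4 libraries and entered the quasi-likelihood test of edgeR. Calls needed a fold change above 2 and p below 0.05 after Benjamini-Hochberg adjustment. PG and SMG differed in 2172 genes, 13.0% of those tested, of which 1078 (6.47%) were higher in PG and 1094 (6.57%) lower. The 4 libraries alone gave 1087 higher (6.53%) and 1123 lower (6.74%), together 13.3%. The split depends on the processing. With library totals in place of TMM the counts were 1368 higher and 898 lower (60.4% of the calls higher, against 49.6%), with a median change of all genes of 0.12 in log2. The deposited TPM values, which are relative to gene length and library total, were tested with limma on log2(TPM + 1) over 8902 genes, so that scaling, test and filter changed together. They gave 1042 higher and 128 lower (89.1% higher), with a median of 0.46. Modest differences are therefore relative to the typical gene, and the counts from TPM are given beside the gene lists whose balance they moved. Those counts are to be read against the calls over all 8902 genes, 1042 higher and 128 lower. On log2(TPM + 0.1) these were 1961 and 185.

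The differences were mostly a few-fold, with a long tail. The median size of a call was 1.46 in log2 for genes higher and 1.58 for genes lower in PG, and 29 and 25 genes differed by more than 5. At 50 CPM or more in the higher gland, 18 genes rose and 19 fell by more than 3.

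**Figure D2:**
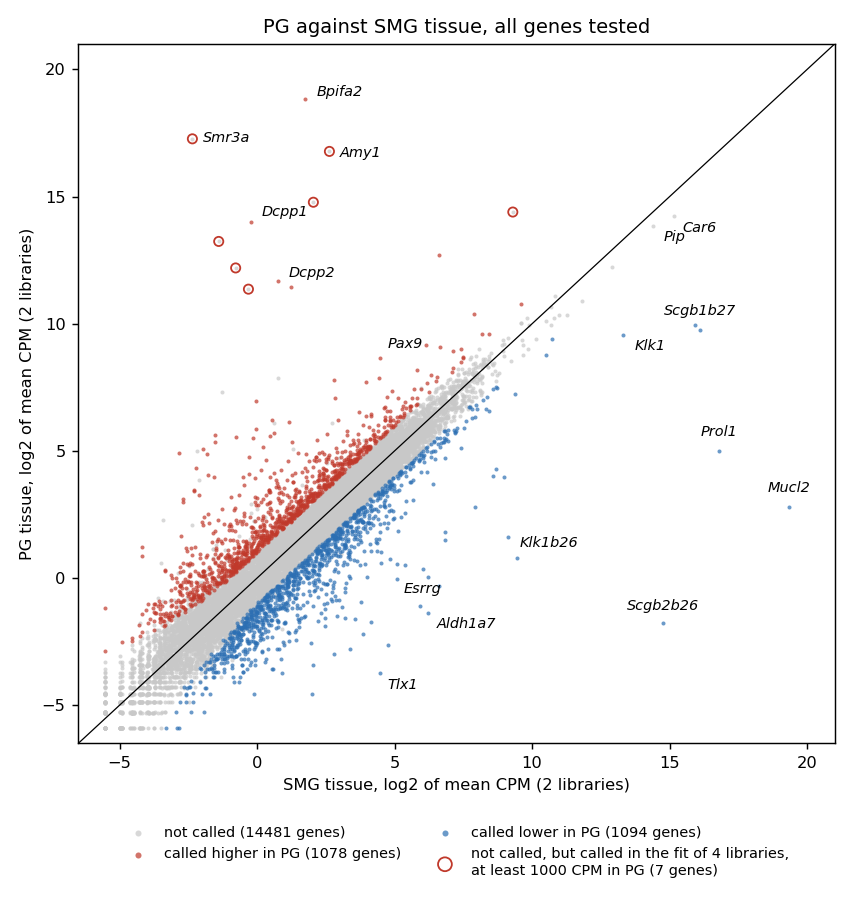
Mean level of each gene tested in PG (vertical) against SMG (horizontal), in log2 CPM, n = 2 libraries per gland, with genes called higher (red) and lower (blue) in PG and the line of equal levels. Rings mark 7 genes at 1000 CPM or more in PG that were called only in the fit of the 4 libraries, and the named secretory products sit far from the line, by 19.63 in log2 for Smr3a.

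The PG transcriptome was led by Bpifa2, the parotid secretory protein, a lipid-binding antimicrobial protein of saliva (chromosome 2, 154008276 to 154016073). It took 39.3% and 39.1% of the counts of the PG libraries and 0.000266% and 0.00026% of those of SMG. Every PG library thus lay far above every SMG library, with a log2 difference of 17.07 (SE 1.63, adjusted p = 0.00526, edgeR). The 4 libraries alone gave 17.06 (SE 0.14, adjusted p = 2.3e-13), and with the 6 libraries the call was lost without either SMG library (adjusted p up to 0.0613).

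Smr3a, whose protein is a precursor of small secreted peptides, took 13.1% and 13.5% of the PG counts and 1.1e-05% and 1.92e-05% of the SMG counts. The log2 difference of 19.63 was not called in the 6 libraries (SE 5.86, adjusted p = 0.0857) and was called in the 4 libraries alone (SE 0.17, adjusted p = 2.3e-13). Amy1, the salivary amylase that digests starch, took 9.38% and 9.54% in PG and 0.000508% and 0.000455% in SMG. Of the 100-base stretches of their transcripts, 34% (Smr3a) and 30.8% (Amy1) occur also in another gene, so their counts are less certain. The log2 difference of Amy1 was 14.15, again called in the 4 libraries alone (adjusted p = 2.3e-13) and not in the 6 (adjusted p = 0.103). For both genes the libraries of PG and SMG lay several orders of magnitude apart, and without SLG replicate 1 both were called (adjusted p = 6.4e-13).

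Further enzymes of PG saliva followed the same pattern. Dnase1, a secreted nuclease, stood at 28940 and 27205 CPM in PG and 3.62 and 4.63 CPM in SMG (log2 12.73, adjusted p = 0.134 in 6 and 9.2e-13 in 4 libraries). Chia1, the acidic chitinase, took 3.35% and 3.46% of the PG counts, and no read was counted in SMG. Taking 3 counts per library as the floor, Chia1 was at least 630000-fold higher in PG. Cst10, a member of the cystatin family of protease inhibitors, stood at 8809 and 8923 CPM in PG with 0 counts in SMG, at least 138000-fold higher. Genes with a count of 0 in any of the 4 libraries were left out of the test, so these values have no p.

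Proline-rich proteins, which bind tannins and coat teeth in the mouth, were PG products as well. Prb1 stood at 830 and 932 CPM in PG, with counts of 0 and 4 in SMG. Prpmp5 stood at 655 and 739 CPM in PG with 0 counts in SMG, at least 10900-fold higher. Of the 18 genes of a list of parotid cargo that the table holds, 9 were tested, and 3 rose in PG (Bpifa2, Lpo and Prp2) and 0 fell, with 7 higher in the 4 libraries alone and a median log2 difference of 5.63 against 0.00493 over all genes. The other 9 had a count of 0 in a library. Among all genes tested, 6.47% were called higher and 6.57% lower. Lpo, the peroxidase that makes hypothiocyanite in saliva, was at 1725 and 1783 CPM in PG against 792 and 740 in SMG (log2 1.20, SE 0.30, adjusted p = 0.0232). It was thus present in both glands, and its call was lost without any of the 4 PG or SMG libraries (adjusted p up to 0.079).

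The Dcpp genes encode demilune cell and parotid proteins, small secreted lectin-like proteins. Dcpp1 stood at 17628 and 15304 CPM in PG, at 0.984 and 0.738 CPM in SMG and at 17733 and 15210 CPM in SLG. Dcpp3 stood at 2977 and 2645 CPM in PG, 1.65 and 3.02 CPM in SMG and 67122 and 60044 CPM in SLG. Dcpp2 stood at 3393 and 3187 CPM in PG, 1.4 and 1.96 CPM in SMG and 62903 and 59178 CPM in SLG. The log2 differences between PG and SMG were 14.22 (SE 0.27, adjusted p = 1.7e-11), 10.23 (SE 0.33, adjusted p = 2.9e-09) and 10.94 (SE 0.24, adjusted p = 5.2e-11). All 3 genes were thus high in PG and SLG and close to absent in SMG, and in SLG Dcpp1 was near its PG level while Dcpp2 and Dcpp3 lay above theirs.

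The 3 copies are near-identical, so their counts can be split among them. Of the 100-base stretches of their transcripts, 19.9% (Dcpp1), 20.2% (Dcpp2) and 26.7% (Dcpp3) occur also in another gene. Their promoters are alike too, with 97.1% identical bases between Dcpp1 and Dcpp2, and TATAA in the same surroundings:
Dcpp1 (chr17:23880756-23880875, plus strand): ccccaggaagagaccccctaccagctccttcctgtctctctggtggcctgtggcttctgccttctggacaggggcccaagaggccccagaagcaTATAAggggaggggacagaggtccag
Dcpp2 (chr17:23898602-23898721, plus strand): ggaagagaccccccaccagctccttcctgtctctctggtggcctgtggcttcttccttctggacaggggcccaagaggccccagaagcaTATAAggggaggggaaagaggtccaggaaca
Dcpp3 (chr17:23917338-23917457, plus strand): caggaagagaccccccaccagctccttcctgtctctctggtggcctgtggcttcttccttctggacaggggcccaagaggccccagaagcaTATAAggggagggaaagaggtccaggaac

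Beyond the cargo, the largest differences in favour of PG at 50 CPM or more included genes with other functions. Ggh, a hydrolase that trims folate polyglutamates, stood at 6340 and 6816 CPM in PG and 103 and 94.9 CPM in SMG (log2 6.05, SE 1.29, adjusted p = 0.0407). Rbm20, a splicing factor best known from heart muscle, stood at 135 and 111 CPM against 0.768 and 1.15 (log2 7.02, SE 0.93, adjusted p = 0.0129). Kcns1, a modifier subunit of voltage-gated potassium channels, stood at 74.6 and 75.1 CPM against 1.61 and 1.31 (log2 5.67, SE 0.19, adjusted p = 1.2e-08). PG lay 66.5-fold, 129-fold and 50.8-fold above SMG in these genes, with no overlap. Lbp, which binds bacterial lipopolysaccharide, rose by 5.05 in log2, Man1a, a mannosidase that trims N-glycans in the Golgi, by 5.01, and Pla2g7, which degrades platelet-activating factor, by 4.99. With the exception of Kcns1, these genes lost the call without any of the 4 PG or SMG libraries (adjusted p up to 0.202 for Ggh, 0.104 for Rbm20, 0.168 for Lbp, 0.207 for Man1a and 0.221 for Pla2g7), while the 4 libraries alone gave each an adjusted p of 1.2e-09 or less.

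In SMG, Mucl2, a small mucin-like secreted protein, took 50.5% and 53.4% of all counts (chromosome 15, 103895855 to 103899312). It stood at 8.19 and 5.77 CPM in PG, a log2 difference of -16.55 (SE 0.33, adjusted p = 1.8e-11, edgeR). Prol1, the proline-rich lacrimal protein also known as mouse mucin 10, took 9.24% and 8.48% of the SMG counts and 0.00288% and 0.00256% of the PG counts (log2 -11.79, SE 0.22, adjusted p = 1.7e-11). Both genes separated the glands without overlap and did so in every fit made.

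Secretoglobins, small dimeric secreted proteins that include the androgen-binding proteins, came next. Scgb1b27 took 5.4% and 5.42% of the SMG counts and 0.0725% and 0.0744% of the PG counts (log2 -6.32, SE 0.17, adjusted p = 1.4e-10). Scgb2b27 took 4.91% and 4.83% in SMG and 0.0829% and 0.0856% in PG (log2 -5.97, SE 0.16, adjusted p = 2.0e-10). Scgb2b26 took 2.22% and 2.14% in SMG, with 18 and 17 counts in the PG libraries (log2 -16.52, SE 0.27, adjusted p = 8.3e-12). The first pair kept a clear level in PG, 1.25% and 1.6% of their SMG mean, while Scgb2b26 was at 0.00106%. Across SMG products the PG level was not a fixed share of the SMG level, since Mucl2 stood at 0.00104%, Prol1 at 0.0283%, Klk1b26 at 0.55% and Klk1 at 7.28%.

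Other SMG products had no count in PG. Smgc, the submandibular gland protein C that marks proacinar and early acinar cells, stood at 3631 and 3647 CPM in SMG, at least 71700-fold above PG. Crisp3, a cysteine-rich secretory protein, was counted in both and stood at 386 and 375 CPM in SMG against 14.4 and 18.3 in PG (log2 -4.54, SE 0.13, adjusted p = 2.7e-10). Agr2, a disulfide isomerase needed for mucin folding, was at 24 and 29.9 CPM in SMG against 0.132 and 0.191 in PG (log2 -7.37). Of 16 members of a list of submandibular cargo that were tested, 8 fell and 5 rose in PG, with a median of -1.48. The shares over all genes were 6.57% lower and 6.47% higher. The 5 that rose were Dcpp1, Dcpp2, Dcpp3, Smr2 and Wfdc18, so the list mixed products of both glands in these samples.

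The kallikreins, serine proteases of the granular ducts that process growth factors and other secreted proteins, formed the most uniform group. Of 16 genes of a list of kallikreins and granular duct products that were tested, 15 fell in PG and 0 rose. Among all genes 6.57% were lower and 6.47% higher. The list had a median log2 difference of -5.06. The list's summed level was 783 and 909 CPM in PG and 12800 and 11420 CPM in SMG. Under each alternative scaling and fit tried, TPM included, 15 or 16 members of the list were lower. Klk1, true tissue kallikrein, stood at 682 and 803 CPM in PG and 10761 and 9635 CPM in SMG (log2 -3.78, SE 0.17, adjusted p = 1.2e-08). Klk1b26 stood at 3.31 and 2.87 CPM against 600 and 524 (log2 -7.51, SE 0.47, adjusted p = 0.000949), and Klk1b22 at 0.61 and 0.99 CPM against 106 and 89.5 (log2 -6.94, SE 0.52, adjusted p = 0.00176). Klk1 thus kept the largest share of its SMG level in PG among these 3. Egf, a growth factor stored in the granules of these ducts, stood at 59.1 and 58.6 CPM against 117 and 108 and did not reach a fold change of 2 (log2 -0.93, SE 0.10, adjusted p = 1.1e-05).

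**Figure D3:**
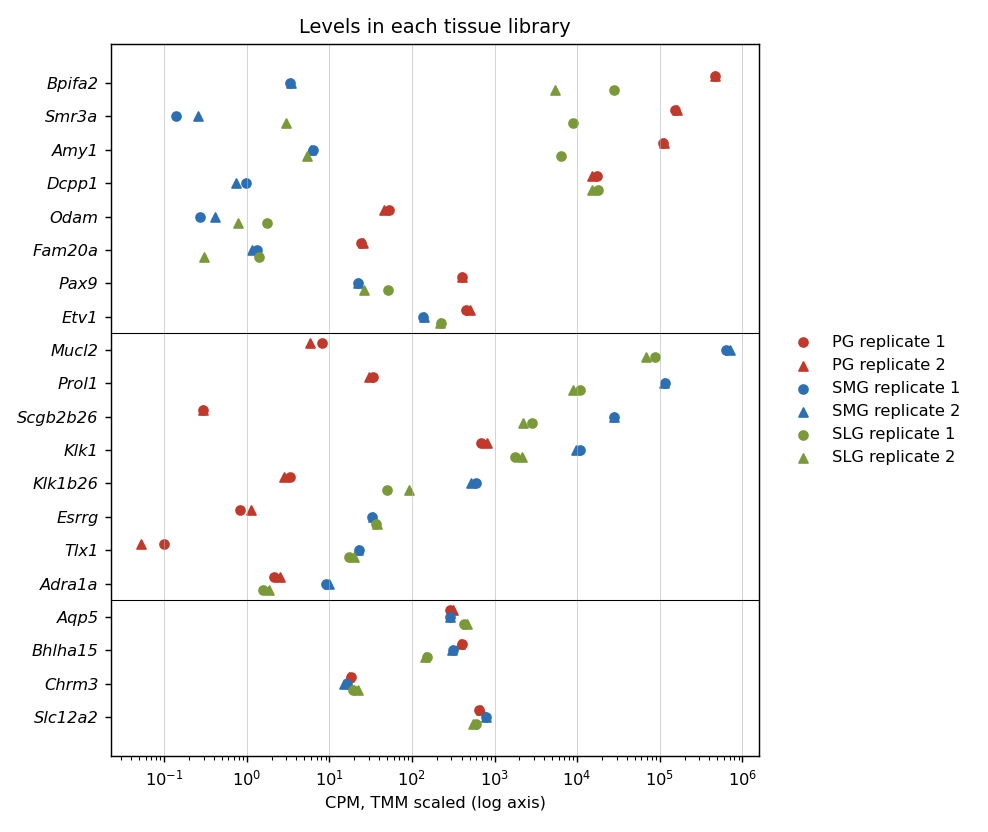
Level of genes in each tissue library on a log axis of CPM (colour: gland, symbol: replicate), with genes higher in PG in the upper panel, genes higher in SMG in the middle and acinar genes near equal in both below. The replicates of PG and of SMG lie close together, while Bpifa2, Smr3a and Amy1 lie apart between the 2 SLG libraries, Smr3a at 8974 and 3.01 CPM.

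Many of these products are neighbours in the genome, and most clusters leaned to 1 gland. Each cluster was taken as all genes between a pair of named boundary genes. On chromosome 7 (43950666 to 44229622, 279 kb), 15 of 19 genes from Klk1b8 to Klk1 were at 0.5 CPM or more in PG or SMG. All 15 had the higher mean in SMG, and 14 kallikreins were called. The other, the predicted gene Gm10109, was left out for a count of 0. On the same chromosome (33737193 to 34100837, 364 kb) all 6 secretoglobin genes at that level had the higher mean in SMG. The Bpif genes on chromosome 2 (153938217 to 154220343) had 4 of 4 expressed members higher in PG. The stretch of proline-rich proteins on chromosome 6 (132114221 to 132600702) had 7 of 7, among them the predicted genes LOC100502592, Gm8882 and Gm5154. Members left out for a count of 0 are counted here by their means alone.

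The casein and Smr cluster on chromosome 5 (87885010 to 88328817, 444 kb) was split. Of its 8 expressed genes, 7 had the higher mean in PG and Prol1 alone had the higher mean in SMG, 309 kb from Smr3a. BC037156, which lies in it, stood at 9942 and 9344 CPM in PG and 0.276 and 0.484 CPM in SMG (log2 14.64, adjusted p = 0.108 in 6 and 5.1e-13 in 4 libraries). Odam, an odontogenic protein of the tooth attachment, stood at 52.6 and 46.3 CPM against 0.276 and 0.415 (log2 7.18, SE 0.44, adjusted p = 0.000106). Csn3, kappa-casein, stood at 31.9 and 27.8 CPM against 0.118 and 0.161 (log2 7.74, adjusted p = 0.0494, lost without any PG or SMG library, up to 0.238). Smr2 differed between the PG replicates, 45.2 and 13 CPM against 0.335 and 0.231 in SMG (log2 6.66, adjusted p = 0.023), and was not called in the 4 libraries alone (adjusted p = 0.0758).

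Caseins are phosphorylated while they are secreted, and the kinases of secreted proteins differed as well. Fam20c, which phosphorylates caseins and other proteins in the secretory pathway, stood at 12.8 and 12.7 CPM in PG and 0.472 and 0.968 CPM in SMG (log2 4.17, SE 0.70, adjusted p = 0.0128). Fam20a, its activating partner, stood at 24.4 and 25.5 CPM against 1.32 and 1.15 (log2 4.33, SE 0.67, adjusted p = 0.0141). Both calls were lost without either SMG library (adjusted p up to 0.0808 and 0.105), and the 4 libraries alone gave 3.4e-07 and 2.1e-09. Fam20b, a xylose kinase of proteoglycan synthesis, went the other way, with 16.5 and 15.8 CPM in PG and 34.9 and 32.9 CPM in SMG (log2 -1.07, SE 0.08, adjusted p = 1.2e-06, not called with library totals or TPM).

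The glands also differed in the enzymes that build sugar chains on mucins. Of 23 genes for mucins and O-glycosylation that were tested, 6 rose and 5 fell in PG, against 6.47% and 6.57% of all genes. Their median was -0.12. Galnt6, which adds the first sugar, stood at 36.2 and 45.1 CPM in PG and 0.394 and 0.3 CPM in SMG (log2 6.85, SE 0.18, adjusted p = 1.4e-10). Gcnt1, which branches the core, stood at 42.5 and 48.4 CPM against 0.689 and 1.13 (log2 5.66, adjusted p = 0.049, lost without any PG or SMG library, up to 0.237). In SMG, St3gal1, which caps the core with sialic acid, was at 517 and 483 CPM against 15.4 and 16.3 in PG (log2 -4.98, SE 0.13, adjusted p = 1.3e-10), and the membrane mucin Muc13 was at 7.28 and 7.79 CPM against 0.33 and 0.382 (log2 -4.40). Members of this pathway thus differed in both directions. On log2(TPM + 1) 5 of 14 were called higher and 1 lower, beside 1042 higher and 128 lower of all 8902 genes.

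Genes of the acinar cell itself were in part close between the glands. Of 18 acinar genes tested, 4 rose (Ano1, Kcnn4, Lpo and Pigr) and 2 fell (Cldn10 and Rab27b), against 6.47% and 6.57% of all genes, and 12 were not called. Aqp5, the apical water channel, stood at 292 and 316 CPM in PG and 286 and 292 CPM in SMG (log2 0.07, SE 0.09, adjusted p = 0.547). Bhlha15, the transcription factor MIST1, stood at 398 and 378 CPM against 317 and 308 (log2 0.31, SE 0.08), and Chrm3, the muscarinic receptor that drives secretion, at 18.2 and 17.2 CPM against 16.6 and 15.2 (log2 0.15, SE 0.10). Slc12a2, which loads chloride for fluid secretion, differed by -0.24 (SE 0.10). None of these 4 reached a fold change of 2. Pigr, which carries antibodies into saliva, was not called without SMG replicate 1 (log2 0.98).

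The 4 that rose include both secretory channels. Ano1, the calcium-activated chloride channel, stood at 108 and 108 CPM in PG and 42.7 and 35.7 CPM in SMG (log2 1.46, SE 0.09, adjusted p = 1.6e-07). Kcnn4, a calcium-activated potassium channel, stood at 390 and 412 CPM against 182 and 174 (log2 1.17, SE 0.08, adjusted p = 2.7e-07). Cldn10, a tight junction protein with ion-selective pores, was the higher one in SMG, at 184 and 184 CPM against 61.4 and 59.2 (log2 -1.61, SE 0.07, adjusted p = 1.5e-08). Not called were a pair of serous products that both glands made in bulk, Car6, the secreted carbonic anhydrase, at 1.69% and 1.59% of PG counts and 2.91% and 2.71% of SMG counts (log2 -0.90), and Pip at 1.17% and 1.29% against 1.76% and 1.61% (log2 -0.57).

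Duct genes leaned to SMG under TMM scaling. Of 15 luminal duct genes tested, 5 fell and 0 rose in PG, and of 30 ion and water transport genes 9 fell and 5 rose. Over all genes tested 6.57% were lower and 6.47% higher. Scnn1b, a subunit of the epithelial sodium channel that takes sodium back, stood at 4.73 and 4.58 CPM in PG and 14.9 and 13.5 CPM in SMG (log2 -1.60, SE 0.13, adjusted p = 1.6e-06). Cftr, the ductal chloride channel, stood at 2.13 and 2.01 CPM against 6.54 and 6.55 (log2 -1.66, SE 0.16, adjusted p = 7.4e-06), and Fxyd2, a regulator of the sodium pump, at 56.4 and 53.2 CPM against 150 and 148 (log2 -1.44, SE 0.07, adjusted p = 3e-08). On log2(TPM + 1), 1 of 13 luminal duct genes fell and the list's median turned from -0.41 to 0.11, beside a median of 0.46 for all genes. Of 18 ion and water transport genes, 4 were called higher and 0 lower on that scale, with a median of 0.30 against -0.295 in the main test. The general epithelial genes Krt18 (log2 -0.01) and Epcam (log2 -0.10) were near equal.

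Ionocytes, rare duct cells rich in proton pumps and chloride channels, are marked by Foxi1 and Ascl3. Of 8 ionocyte genes tested, 5 fell and 1 rose in PG, against 6.57% and 6.47% of all genes. The list had a median of -1.23 and a summed level of 21.15 and 19.8 CPM in PG against 57.3 and 56.3 in SMG. Ascl3 stood at 4.3 and 4.65 CPM in PG and 14.3 and 17.2 CPM in SMG (log2 -1.82, SE 0.14, adjusted p = 9.4e-07). Foxi1 stood at 2.74 and 2.26 CPM against 7.32 and 6.94 (log2 -1.51, SE 0.17, adjusted p = 1.9e-05). The one that rose, Atp6v0a4, a proton pump subunit, lost the call without any PG or SMG library (adjusted p up to 0.155). With TPM 2 or 3 of 6 members were called lower, according to the pseudocount.

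Myoepithelial cells, the contractile cells around acini, share their genes with the smooth muscle of vessels. Of 11 such genes tested, 6 fell and 0 rose in PG, against 6.57% and 6.47% of all genes. The list had a median of -1.04 and a summed level of 126 and 143 CPM in PG against 259.5 and 245 in SMG. Acta2 stood at 36 and 33 CPM against 73.4 and 68.6 (log2 -1.04, SE 0.09, adjusted p = 1.8e-06, with no call without PG replicate 2, at log2 -0.97, or without SMG replicate 1). Cnn1 stood at 5.01 and 6.04 CPM against 16.8 and 17.1 (log2 -1.62, SE 0.11, adjusted p = 3.0e-07). On log2(TPM + 1), 0 of 8 were called lower by limma, and their median was -0.425.

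**Figure D4:**
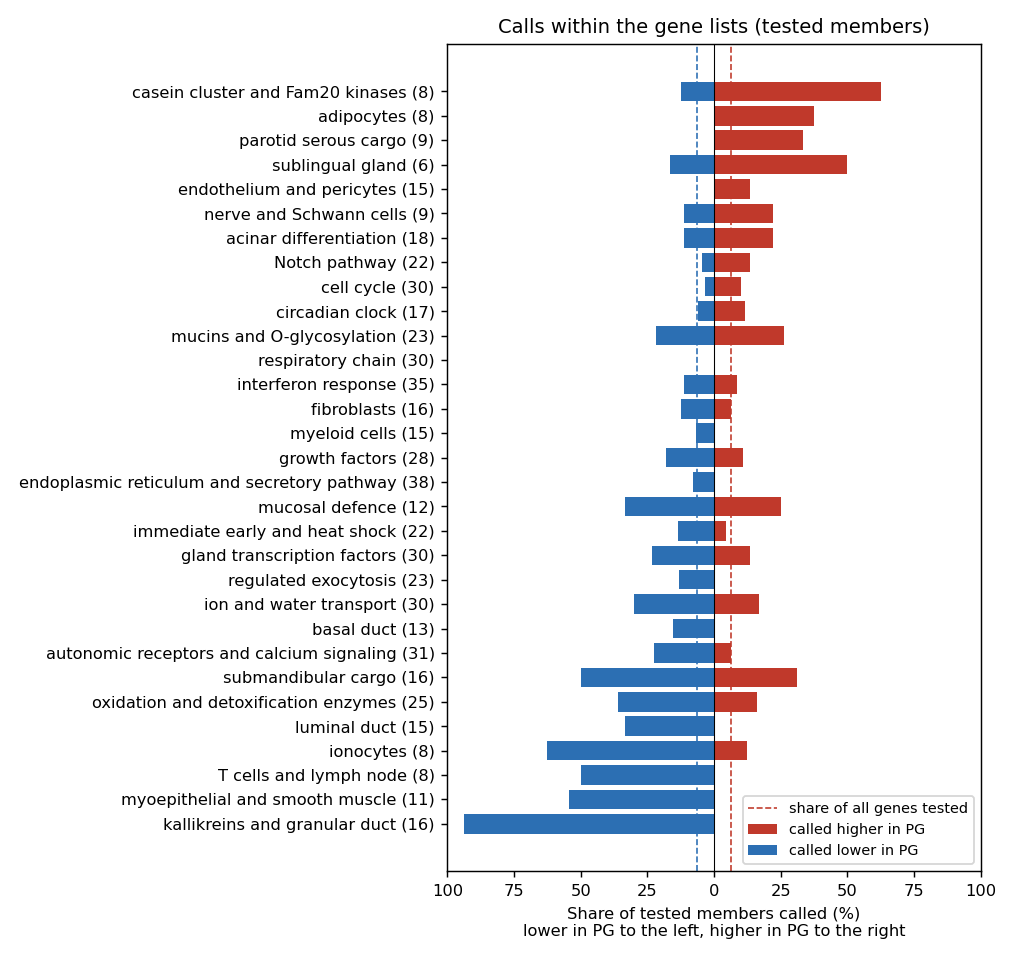
Share of the tested members of each gene list (number tested in parentheses, lists of 6 or more) called lower in PG (blue, to the left) or higher in PG (red, to the right), in percent, with dashed lines at the shares of all genes tested, 6.57% and 6.47%. Of the kallikrein list 15 of 16 were lower, and of the respiratory chain list none of 30 was called.

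Transcription factors marked each gland. Pax9, a factor of the pharyngeal pouches, tooth and tongue, stood at 408 and 407 CPM in PG and 22.3 and 22.2 CPM in SMG (log2 4.19, SE 0.40, adjusted p = 0.00372). Etv1, an ETS factor, stood at 457 and 510 CPM against 138 and 139 (log2 1.80, SE 0.08, adjusted p = 1.85e-08), and the homeobox genes Irx1 and Irx2 rose by 1.38 and 1.14. Pax9 was the factor of the list with the largest difference in favour of PG.

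On the SMG side stood Tlx1, a homeobox factor needed for the spleen, at 22.7 and 22.1 CPM against 0.0989 and 0.0521 in PG (log2 -8.17, SE 0.21, adjusted p = 1.3e-10). Esrrg, an orphan nuclear receptor, stood at 33.2 and 34.2 CPM against 0.841 and 1.11 (log2 -5.11, SE 0.12, adjusted p = 7.7e-11). Foxa1, a pioneer factor that opens chromatin, stood at 26.3 and 25.6 CPM in SMG, with 0 and 32 counts in PG. Of 30 gland transcription factors tested, 4 rose and 7 fell in PG, against 6.47% and 6.57% of all genes. A further 11 were left out for a count of 0. With TPM, 8 of 27 were called higher and 5 lower on log2(TPM + 1), and 13 and 5 on log2(TPM + 0.1). Over all 8902 genes the TPM calls were mostly higher too, 1042 against 128 lower and 1961 against 185. The change of balance in this list is therefore not particular to these factors.

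Receptors and signals of nerves differed too. Ret, the receptor kinase of the GDNF family that includes neurturin, stood at 61.2 and 59.2 CPM in SMG and 0.577 and 0.347 CPM in PG (log2 -7.01, SE 0.16, adjusted p = 5.2e-11). Nrtn, neurturin itself, was the higher one in PG, at 3.96 and 5.56 CPM against 1.93 and 1.75 (log2 1.37, SE 0.21, adjusted p = 0.000251). Adra1a, an alpha-adrenergic receptor through which sympathetic nerves act, stood at 2.14 and 2.5 CPM in PG and 9.05 and 9.77 CPM in SMG (log2 -2.02, SE 0.17, adjusted p = 1.8e-06). Adra2a and Adra1d also fell, by 3.57 and 3.31 in log2 at 1.5 CPM or less in every library, while Adrb1 stood at 25.5 and 26.3 CPM against 31.5 and 29.4 and was not called (log2 -0.23). Of 31 autonomic receptor and calcium signalling genes, 7 fell and 2 rose, against 6.57% and 6.47% of all genes. None was called on log2(TPM + 1) by limma. One of those that rose, P2ry2, lost the call without any PG or SMG library (adjusted p up to 0.177).

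Among growth factors, 3 of 28 tested rose in PG and 5 fell, beside 6.47% and 6.57% of all genes. Tgfb2 stood at 24 and 25.2 CPM in PG and 10.8 and 9.84 CPM in SMG (log2 1.25, SE 0.14, adjusted p = 2.9e-05). Wnt4 stood at 3.76 and 3.33 CPM against 23.1 and 21.3 (log2 -2.64, SE 0.12, adjusted p = 1.5e-08). Both are signals best known from the development of organs. On log2(TPM + 1), 2 of 9 growth factors were called higher and 2 lower.

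Oxidation and detoxification enzymes were split between the glands, with 4 of 25 higher and 9 lower in PG (5 and 4 of 17 on log2(TPM + 1)). Over all genes the shares were 6.47% and 6.57%. Cyp2b10, a cytochrome P450 known from the liver, stood at 45.9 and 47.3 CPM in PG and 0.551 and 0.622 CPM in SMG (log2 6.31, SE 0.45, adjusted p = 0.000365). Aldh1a7, an aldehyde dehydrogenase, stood at 0.577 and 0.191 CPM against 76.4 and 72.1 (log2 -7.57, SE 0.22, adjusted p = 6.7e-09). Gpr155, a lysosomal cholesterol sensor, is no secreted product and differed widely as well, at 698 and 690 CPM in SMG against 2.08 and 1.34 in PG (log2 -8.66, SE 0.18, adjusted p = 2.8e-11).

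The general secretory machinery differed little, beside 6.47% higher and 6.57% lower over all genes. Of 38 secretory pathway genes, most of them of the endoplasmic reticulum, 0 rose and 3 fell in PG, which were the chaperones Hspa5 (186 and 175 CPM against 418 and 399, log2 -1.18), Calr (log2 -1.16) and Pdia3 (log2 -1.04). With TPM none of the list was called lower, and 2 of 38 were called higher on log2(TPM + 1). Of 23 exocytosis genes, 3 fell (Pclo, Rab27b and Sytl5) and 0 rose, but on log2(TPM + 1) 2 of 15 were called higher and 0 lower, and on log2(TPM + 0.1) 4 and 0. Of 30 respiratory chain genes encoded in the nucleus, 0 were called, and 13 genes of the mitochondrial genome took 1.14% and 1.23% of PG counts and 1.98% and 1.89% of SMG counts, with 5 of 13 called lower.

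Of 17 circadian clock genes, 2 rose and 1 fell in PG, against 6.47% and 6.57% of all genes. On log2(TPM + 1), 6 of 15 rose and 1 fell. Hlf, an activator driven by the clock, stood at 18.3 and 17.8 CPM in PG and 3.21 and 2.95 CPM in SMG (log2 2.55, SE 0.15, adjusted p = 1.3e-07). Nfil3, a repressor that binds the same sites, stood at 3.38 and 1.89 CPM against 19.5 and 20.3 (log2 -2.91, SE 0.25, adjusted p = 4.4e-05). Tef, a relative of Hlf, stood at 279.6 and 270 CPM against 141 and 132 (log2 1.01), at the fold limit and not called in the 4 libraries alone. The sources used here do not give the time of dissection.

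Some markers of other cell types differed between the glands as well, where 6.47% of all genes were called higher and 6.57% lower in PG. Of 8 adipocyte genes tested, 3 rose in PG and 0 fell, with a summed level of 77.6 and 91.6 CPM in PG against 39.8 and 40.4 in SMG. Cfd, the fat product adipsin, stood at 6.07 and 11.2 CPM against 0.0984 and 0.207 (log2 5.84, adjusted p = 0.0199), and its call was lost without either SMG library (adjusted p up to 0.139). Fabp4, a fatty acid carrier of fat cells, lost its call without any PG or SMG library (adjusted p up to 0.154), and without SMG replicate 2 only 1 of the 8 genes was called. Of 8 T cell and lymph node genes, 4 fell in PG, among them Ccl21a, Trbc1 and Zap70, with sums of 2.52 and 2.38 CPM against 7.185 and 13.9. Ccl21a, a chemokine of lymph vessels and nodes, stood at 0.346 and 0.365 CPM in PG and 2.48 and 4.13 CPM in SMG (log2 -3.21, SE 0.34, adjusted p = 1.4e-05). Trbc1 lost the call without any PG or SMG library (adjusted p up to 0.182), and Zap70 lost it without either PG library or SMG replicate 1 (up to 0.208). Cd3e and 11 other genes of this list were at 0 in a library.

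Fibroblast genes gave 1 higher (Dpt, not called without PG replicate 1) and 2 lower (Dcn and Postn) of 16 tested, with Postn at 4.7 and 5.51 CPM in PG against 32.8 and 29.7 in SMG (log2 -2.62, SE 0.12, adjusted p = 1.5e-08). Endothelial genes gave 2 higher (Plvap and Cdh5) and 0 lower of 15, and Cdh5 was not called without PG replicate 1 or SMG replicate 2 (adjusted p up to 0.0602). Of the 4 muscle genes tested, Mb alone was called, and without PG replicate 2 it was not (log2 0.62, adjusted p = 0.507). The shares over all genes, 6.47% higher and 6.57% lower, were near those of the fibroblast list. What part these cell types have in the differences of whole glands was not tested.

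Whether organoids keep the tissue's difference was tested as an interaction, the PG minus SMG difference in tissue minus that in organoids in DAM, over 12 libraries. Of 14737 genes tested, 1670 had a more positive and 2111 a more negative difference in tissue (25.7% called, by the same thresholds). Of the 845 genes higher in PG tissue that were tested here, 139 (16.4%) were also higher in PG organoids and 98 (11.6%) were lower. Of the 862 genes lower in PG tissue, 92 (10.7%) were lower in PG organoids and 213 (24.7%) were higher. Over all genes the organoid shares were 9.06% higher and 4.86% lower, 1335 and 716 genes, and the median organoid difference was -0.09 among genes higher and 0.16 among genes lower in PG tissue.

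Several of the dominant tissue products were barely counted in organoids. Amy1 stood at 0.343 and 0.615 CPM in PG organoids and 0.15 and 0.125 CPM in SMG organoids. Dcpp1 reversed, with 7.72 and 11.9 CPM in PG organoids and 82.5 and 99 CPM in SMG organoids (log2 -3.21 in organoids, interaction 17.41, SE 0.38, adjusted p = 3.1e-14). Scgb1b27 also turned, from -6.33 in tissue to 1.39 in organoids at under 1 CPM in every organoid library.

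The study named 11 of the genes tested here as organoid markers of a gland, among them Wnt5b and Dcpp3 for the SLG, which a comparison of PG with SMG does not test as markers. It named Sema3c, Klk1b27, Klk1 and Klk1b11 among SMG-specific genes that rose upon differentiation of SMG organoids. All but Sema3c and Klk1b27 it named from comparisons of organoids between glands, Klk1 and Klk1b11 thus in both places. For the genes named from those comparisons the organoid differences are no independent evidence of direction. The study also cited a tissue database for Fam20c, Serpine2 and Calml3 in PG. It checked Calml3, Serpine2, Itga8 and Dcpp3 by quantitative PCR of organoids. Klk1 was lower in PG in both, by 3.78 in tissue and 4.06 in organoids (interaction 0.27, SE 0.37, adjusted p = 0.567). Klk1b11 and Calml3 had the same direction in both too, with interactions of -0.84 (adjusted p = 0.0105, below the fold limit) and 0.56, and the tissue call of Calml3 was lost without any PG or SMG library (adjusted p up to 0.149). Sema3b, a secreted guidance molecule, stood at 2.36 and 1.68 CPM in PG tissue and 1.69 and 2.07 CPM in SMG tissue (log2 0.11, adjusted p = 0.797), but differed by -2.67 in organoids. Sema3c fell by 1.35 in PG tissue and was at 0.97 in organoids. Serpine2, a protease inhibitor, stood at 10.9 and 9.95 CPM in PG tissue and 1.61 and 2.01 CPM in SMG tissue (log2 2.53, SE 0.17, adjusted p = 2.9e-07).

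**Figure D5:**
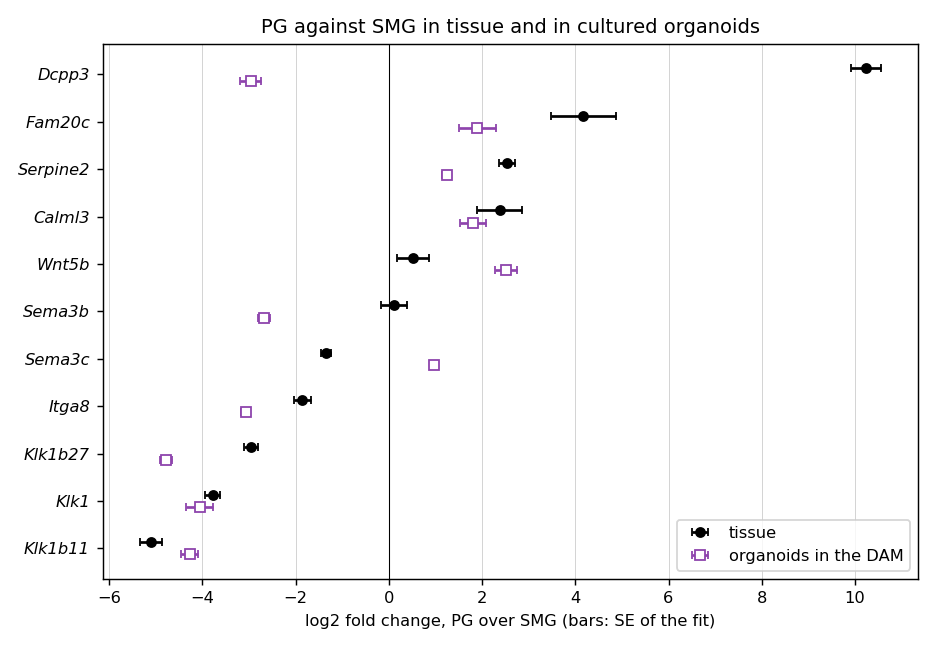
PG over SMG log2 fold change of the 11 tested organoid markers of the study in tissue (filled, 6 libraries) and in organoids in the DAM (open, 12 libraries with tissue), with the standard error of the fit as bars. Klk1, Klk1b11 and Calml3 lie close in both, while Dcpp3, named by the study for SLG organoids, lies at 10.23 in tissue and -2.97 in organoids.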

How the data were processed

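RNA of the glands was sequenced as stranded TruSeq libraries, and the authors deposited counts per gene, with HISAT2, StringTie, DESeq2 and the build GRCm38 named in the submitters' processing notes (no source used here gives versions, settings or strand use in counting). FPKM values deposited by the authors were not used, and their deposited TPM values served in alternatives. Organoid columns numbered 3 match no title: their counts were assigned by group name, and 4 FPKM and TPM columns were left out. Counts were fitted in R 4.3.3 with edgeR 4.0.16 (TMM, robust quasi-likelihood, PG, SMG and SLG tissue sharing the spread, 57397998 to 71367044 counts per library), after genes with a count of 0 in any PG or SMG library were left out. Standard errors are the log2 difference divided by the square root of its F statistic. TPM were tested with limma 3.58.1 on log2(TPM + 1) or log2(TPM + 0.1). Genes needed a mean of at least 1 TPM over the 4 PG and SMG libraries together, except where no filter is named. DESeq2 1.42.0, RLE size factors, other filters, a replicate block and leaving out each library were alternatives. The fits were tried on simulated counts with 200 changed genes, where the SLG libraries shared a mean, unlike the SLG libraries here. The fit of 6 libraries called 52% of 2-fold changes, which lie at the fold limit, and 98% of 3-fold changes. It made 2 false calls. On log2(CPM + 1), limma called 18% and 84%.

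Genes named are the study's markers, the 12 largest calls per direction at 50 CPM or more, the 8 genes with the most counts per gland, up to 4 members of each of 36 lists by adjusted p and the 6 highest genes per gland with a count of 0 in the other. Predicted gene models were left out of the second and last of these, and BC037156 and further list members were named after their values were seen. The comparison and the lists were chosen with earlier results of these data known. Of the gene IDs, 99.79% had a RefSeq entry, which gave coordinates and promoters (GRCm38.p6). Shared 100-base stretches were found in GENCODE vM21 transcripts, and 22 of 189 named genes shared over 10% of theirs. Bounds for genes at 0 take 3 counts per library and cover counting error only. Results for some genes are not reported here.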

Additional observations from a re-analysis of the deposited data

Results flagged for a closer look

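These genes were singled out because the PG minus SMG difference in tissue departed from that in organoids by an interaction test over 12 libraries (edgeR, log2 values, tissue minus organoids). All are genes that the study named as specific to a gland in its organoid results, Dcpp3 and Wnt5b for the SLG. Sema3c and Klk1b27 were named as SMG genes that rose upon differentiation of SMG organoids. The others were named from comparisons of organoids between glands. For these others, a smaller or opposite difference in tissue is no independent evidence. The tissue difference was higher than that of organoids for Klk1b27 by 1.81, with -2.98 in tissue and -4.78 in organoids. Sema3b gave 2.77, with 0.10 in tissue and -2.67 in organoids. Serpine2 gave 1.28, with 2.52 and 1.24, and Fam20c gave 2.26, with 4.16 and 1.90. Itga8 gave 1.20, with -1.86 and -3.07, and Dcpp3 gave 13.19, with 10.23 and -2.97. The tissue difference was lower for Sema3c, with -2.34 from -1.37 in tissue and 0.97 in organoids, and for Wnt5b, with -2.0025 from 0.51 and 2.51. Groups of 2 libraries were too small for the test of a sample's distance from its group, and libraries that differed from their replicate, PG replicate 2 in muscle genes and SLG replicate 1 in PG products, are described with the results above.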

How the results depend on the processing

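No named gene changed direction in a call. Of 170 named genes tested, 86 gave the same call under each alternative, and the others gained or lost it under at least 1. The counts of genes higher and lower in PG, 1078 and 1094, stayed within 1.5 times under RLE size factors, library totals, DESeq2 (982 and 1002), other filters (up to 1162 and 1303) and the 4 libraries alone. TPM, where scaling, test and filter changed together, moved them further, and what share each of these had was not tested. Genes higher numbered 1961 on log2(TPM + 0.1), and genes lower numbered 128 on log2(TPM + 1), 185 on log2(TPM + 0.1) and 143 on log2(TPM + 1) with no filter. Calls of list members higher, 62, became 102 on log2(TPM + 0.1), and calls lower, 107, became 44, 50 and 46 in the same order of TPM settings. Named genes lower, 72, became 39, 42 and 41. Without each library in turn, genes higher ranged from 857 to 1113, genes lower from 919 to 1137 and named genes higher from 26 to 49 (45 in all libraries), with 26 without SMG replicate 1 and 27 without SMG replicate 2. A fit with the replicate block gave 1043 higher and 1065 lower. Over genes, the replicate differences of PG and SMG were not correlated (r = -0.0032). With 2 libraries per gland this cannot show whether same-numbered libraries came from the same mouse. For the difference between tissue and organoids, counts of 1670 and 2111 became 1772 and 2850 with filterByExpr and 1581 and 2175 from 8 libraries. With 2 libraries per gland the spread rests on few samples, a count of 0 limits a gene to under 0.0494 to 0.0692 CPM in a library, and near-identical copies may share reads.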

Other observations

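Among the genes that a count of 0 kept out of the test, some were abundant in the other gland. Of 1188 genes counted in both PG libraries with a count of 0 in an SMG library, 459 were at 0 in both SMG libraries. By their PG mean, 69 were at 1 CPM or more and 11 at 50 CPM or more, and 195 were called higher with filterByExpr. Of 1343 genes counted in both SMG libraries with a count of 0 in a PG library, 528 were at 0 in both PG libraries. By their SMG mean, 58 were at 1 CPM or more and 3 at 50 CPM or more, and 274 were called lower in PG with filterByExpr. Lman1l, a lectin-like relative of a cargo receptor of the secretory pathway, stood at 17.3 and 16.5 CPM in SMG and 535 and 604 CPM in SLG with 0 counts in PG, at least 333-fold higher in SMG. Duox2, an oxidase that makes hydrogen peroxide for defence at mucosal surfaces, stood at 12.3 and 11.9 CPM in SMG, at least 239-fold higher. Gal3st2b, named for a sulfotransferase of galactose, was at least 1870-fold higher in PG, with 73.7% of its 100-base stretches shared with another gene.

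The remaining gene lists are given by their calls, against 6.47% of all genes higher and 6.57% lower. Of 35 interferon response genes 3 rose and 4 fell in PG, of 22 immediate early and heat shock genes 1 rose and 3 fell, and of 12 mucosal defence genes 3 rose and 4 fell. The mucosal defence calls became 0 higher and 2 lower of 14 without SMG replicate 1 and 1 and 2 of 12 without SMG replicate 2, and Chil1 and Lyz1 lost the call without any PG or SMG library (adjusted p up to 0.239 and 0.165). Of 22 Notch pathway genes 3 rose (Hey1, Hes6 and Notch4) and 1 fell (Notch1), with Hey1 not called without SMG replicate 2 and Notch1 not without PG replicate 1 or SMG replicate 1, of 30 cell cycle genes 3 rose and 1 fell, and of 13 basal duct genes 0 rose and 2 fell. Of 9 nerve and Schwann cell genes 2 rose and 1 fell, of 15 myeloid genes 0 rose and 1 fell, of 3 B cell genes 0 were called, and of 2 epidermis genes 1 rose. A list of SLG products had 3 of 6 members higher (the Dcpp genes) and 1 lower, with a summed level of 24010 and 21140 CPM in PG, 13.3 and 14.2 CPM in SMG and 147800 and 134500 CPM in SLG. Of the 11 organoid markers of the study, some of them for the SLG, 4 were higher and 5 lower in PG tissue, and of its 13 cell type markers 0 were higher and 1 lower (Acta2). In the interferon and cell cycle lists the calls without 1 library differed, for example Plk1 (adjusted p up to 0.168) and Isg15 (adjusted p up to 0.0601).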
